A study of Mus musculus with 11 samples.

Results

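The genes described here encode the proteins of the cytosolic ribosome, measured by RNA-seq in the adult mouse hypothalamus. They were chosen by symbol: every gene of the deposited table named as a small subunit protein (Rps), a large subunit protein (Rpl), a stalk protein (Rplp0, Rplp1, Rplp2) or Rpsa, with names that mark pseudogenes left out. This gave 81 of the 14864 genes in the table. Of these, 31 encode small subunit proteins, 43 large subunit proteins and 3 stalk proteins, and 4 are paralogs of large or small subunit genes (Rpl22l1, Rpl7l1, Rps27l and Rpl3l). A filter on low values (mean CPM, counts scaled to library size, of at least 1 over all libraries) kept 80 of them, and Rpl3l fell below it.

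The libraries came from mice aged 60 to 70 postnatal days, of 2 genotypes. In one group, 5 libraries were wild type (WT, 2 female and 3 male). In the other, 6 were heterozygous at Myt1l (Het, 3 female and 3 male), whose product is a neuronal transcription factor with zinc fingers. The labels name no allele, and they do not say whether each library is a separate animal, so p-values measure the spread between these libraries. The deposited values are log2 CPM after a correction for unwanted variation. The corrected counts behind them summed to 22921048 to 24941704 per library, so that 1 count was worth 0.0417 to 0.0423 CPM, while the raw depth is unknown. The title of the series names loss of MYT1L as its subject, and the comparison asks what the heterozygous state does to RNA levels.

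Every cell builds its ribosomes from a small subunit, which reads the mRNA, and a large subunit, which joins amino acids into a chain. Apart from the stalk, a ribosome holds a single copy of each protein on a scaffold of ribosomal RNA, and the genes for them are scattered over the genome. Their mRNAs are short and abundant, and most begin with a C followed by a run of pyrimidines (C or T in the DNA), the 5′ terminal oligopyrimidine or TOP element, through which mTOR controls their translation.

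Of the 81 genes, 61 had an entry in the RefSeq promoter table (build GRCm38.p6). Each entry spans 250 bases before an annotated start and 50 after it. The stretch around the start is shown for 8 genes because the TOP element is what these mRNAs share at their 5′ end, and because Rpl13 and Rps2 departed from the rest in level. In each line 30 bases of the sense strand are given, with the longest run of C and T between 30 bases before the annotated start and 50 bases after it in capitals.
Rpl11 (chr4:136053358-136053387, minus strand): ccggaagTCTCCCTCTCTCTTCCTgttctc
Rpl19 (chr11:98026944-98026973, plus strand): gcggcccacaagCTCTTTCCTTTCgctgct
Rpl37a (chr1:72711274-72711303, plus strand): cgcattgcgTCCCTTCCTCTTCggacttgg
Rplp2 (chr7:141447636-141447665, plus strand): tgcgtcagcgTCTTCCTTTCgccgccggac
Rpl13 (chr8:123102324-123102353, plus strand): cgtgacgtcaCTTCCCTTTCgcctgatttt
Rps2 (chr17:24720083-24720112, plus strand): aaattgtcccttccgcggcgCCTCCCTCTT
Rpl22 (chr4:152324413-152324442, plus strand): aatatcagcgctgCTTCTggaatgttccag
Rpl7l1 (chr17:46782670-46782699, minus strand): gtcgaggcgggccTCTCTaccccgcccggt
The first 6 carried runs of 10 to 17 pyrimidines, while the longest run of Rpl22 was 5 bases. With the annotated start as base 1, the run began at base 14 in Rpl11, 33 in Rpl19, 24 in Rpl37a and 41 in Rps2. It began before the start in Rplp2 (-5) and Rpl13 (-16). A TOP element opens the mRNA, so a run in this window is not shown to be one. The stretch of Rpl22 lies before the gene's start in the annotation used for lengths (chr4:152325742). It may therefore miss the start of the mRNA measured here. The runs of Rps2 and of the paralog Rpl7l1 reached the edge of the searched window and were cut there, so the capitals do not show their full length.

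Runs of C and T were common near these starts. A run of at least 9 lay in that stretch of 47 of the 61 genes (77.0%), against 22.7% of all 27025 genes in the table. On the sense strand, CTTTCC was present in 27.9% of the 61 and in 4.36% of all genes, and CTCTTT in 31.1% and 3.57%. Over the whole window of 300 bases and on both strands, CCGGAAG, a core of ETS family binding sites, stood in 41.0% of the 61 genes and in 9.93% of all. TATAAA in the 50 bases before the start was found in 1.64% and 3.15%. These are counts of letters near annotated starts, which may not be the starts used in this tissue.

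The check of the targeted gene and of the tissue bears on every value below. Myt1l itself did not separate the groups: it stood at 76.3 ± 15.9 CPM in WT (SD, n = 5) and at 76.3 ± 26.9 in Het (SD, n = 6). The lowest library of all was WT replicate 11 (51.1 CPM) and the highest was Het replicate 9 (130.0 CPM), both against their labels, so results are also given without these 2 libraries. Hypothalamic peptide genes were abundant, with Hcrt at 1233 ± 212 CPM in WT (SD, n = 5). Over all genes tested, 2.3% were called higher in Het and 1.14% lower (limma, adjusted p below 0.05). All 18 striatal markers tested had positive Het minus WT differences, and 7 of them rose. Their summed level spanned 2122 to 2708 CPM in WT and 2473 to 4399 CPM in Het. Their mean level (centred log2) was highest of all in Het replicate 9 (0.62), and highest among WT libraries in WT replicate 11 (0.02). The doubt over these 2 libraries rests on Myt1l alone. Of 22 hypothalamic markers tested, 5 fell, and their sums spanned 4009 to 4968 CPM in WT and 2918 to 4278 CPM in Het. Whether these marker differences come from tissue content was not tested. Their part in the results below was not tested beyond the values given. In bulk tissue, fewer cells of a type and less RNA per cell cannot be told apart.

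Levels were compared between genes per kilobase of mRNA, from the shortest principal transcript in the annotation. The median over the 80 tested genes was 714 CPM per kilobase, 24 genes lay over 1000, and 3 lay under 50. The highest were Rpl13 (2323), Rps14 (2227), Rps19 (2159), Rpl41 (1989) and Rpl3 (1969 CPM per kilobase). RPL13 sits on the surface of the large subunit, RPS14 and RPS19 belong to the small subunit, and RPL3 reaches toward the site where peptide bonds are made. RPL41 is a tiny basic peptide, among the smallest proteins known. The proteins enter the ribosome in equal numbers, whereas the mRNA levels spanned this wide range.

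At the low end stood Rpl24 (3.10 CPM per kilobase), Rps10 (3.25), Rpl13a (25.4) and Rps20 (102). Rpl24 and Rps10 each overlap, on the same strand, another annotated gene (Gm28037 and RPS10-NUDT3, respectively). Rpl13a overlaps 3 small or predicted genes on its strand (Gm45713, Mir5121 and Snord33). The sources used here do not say how reads in such overlaps were assigned, and the part of the overlaps in these levels was not tested. The only principal transcript of Rps20 is 3706 nt long, which lowers its level per kilobase, since its level was 377 CPM. Near-identical copies add to the uncertainty: 63 of the 81 genes had at least 1 annotated pseudogene transcript at 95% identity over at least 50% of the mRNA, with 55 for Rpl21, 37 for Rpl7a and 27 for Rps2.

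Rps27l, Rpl7l1 and Rpl3l were expressed below the genes they resemble, and Rpl22l1 was not. Rps27l, a p53-induced relative of Rps27, stood at 142 CPM per kilobase against 1873 for Rps27. Rpl22l1 stood at 232 and its parent Rpl22 at 224 CPM per kilobase, the closest of these pairs. Rpl7l1 was at 115 against 799 for Rpl7. Rpl3l, known from heart and skeletal muscle, was at 0.414 CPM per kilobase against 1969 for Rpl3, with 0.295 to 1.09 CPM in single libraries.

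Across libraries the genes rose and fell nearly as a block. The first principal component of the 80 genes held 82.8% of their variance over the 11 libraries, against 21.6% for all 13184 genes tested. These sets were not matched for level or mRNA length. The 80 genes had medians of 482 CPM and 705 nt, while the genes tested reach down to a mean of 1 CPM. After the means of genotype and sex groups were taken out, the median correlation of a gene with the mean of the others was r = 0.96, and 64 of the 80 were above 0.9. This is a description over 11 libraries, which share the same scaling and correction. Among those that followed most closely were Rpl19 (r = 0.996), Rps13 (0.995), Rps20 (0.990) and Rpl12 (0.989).

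Rpl19 serves as an example of the block. Its levels were 577.7, 693.9, 736.5, 613.4 and 541.8 CPM in WT replicates 4, 6, 3, 7 and 11, and in Het they ran from 518.4 to 641.4 CPM with a median of 545.2. WT replicates 6 and 3 were the highest, and Het replicate 7 came next, so the groups overlapped. WT replicate 3 held the highest level for 64 of the 80 genes and WT replicate 6 for 13. At the low end, Het replicates 5, 8 and 9, all males, held the lowest level for 33, 20 and 13 genes.

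**Figure D1:**
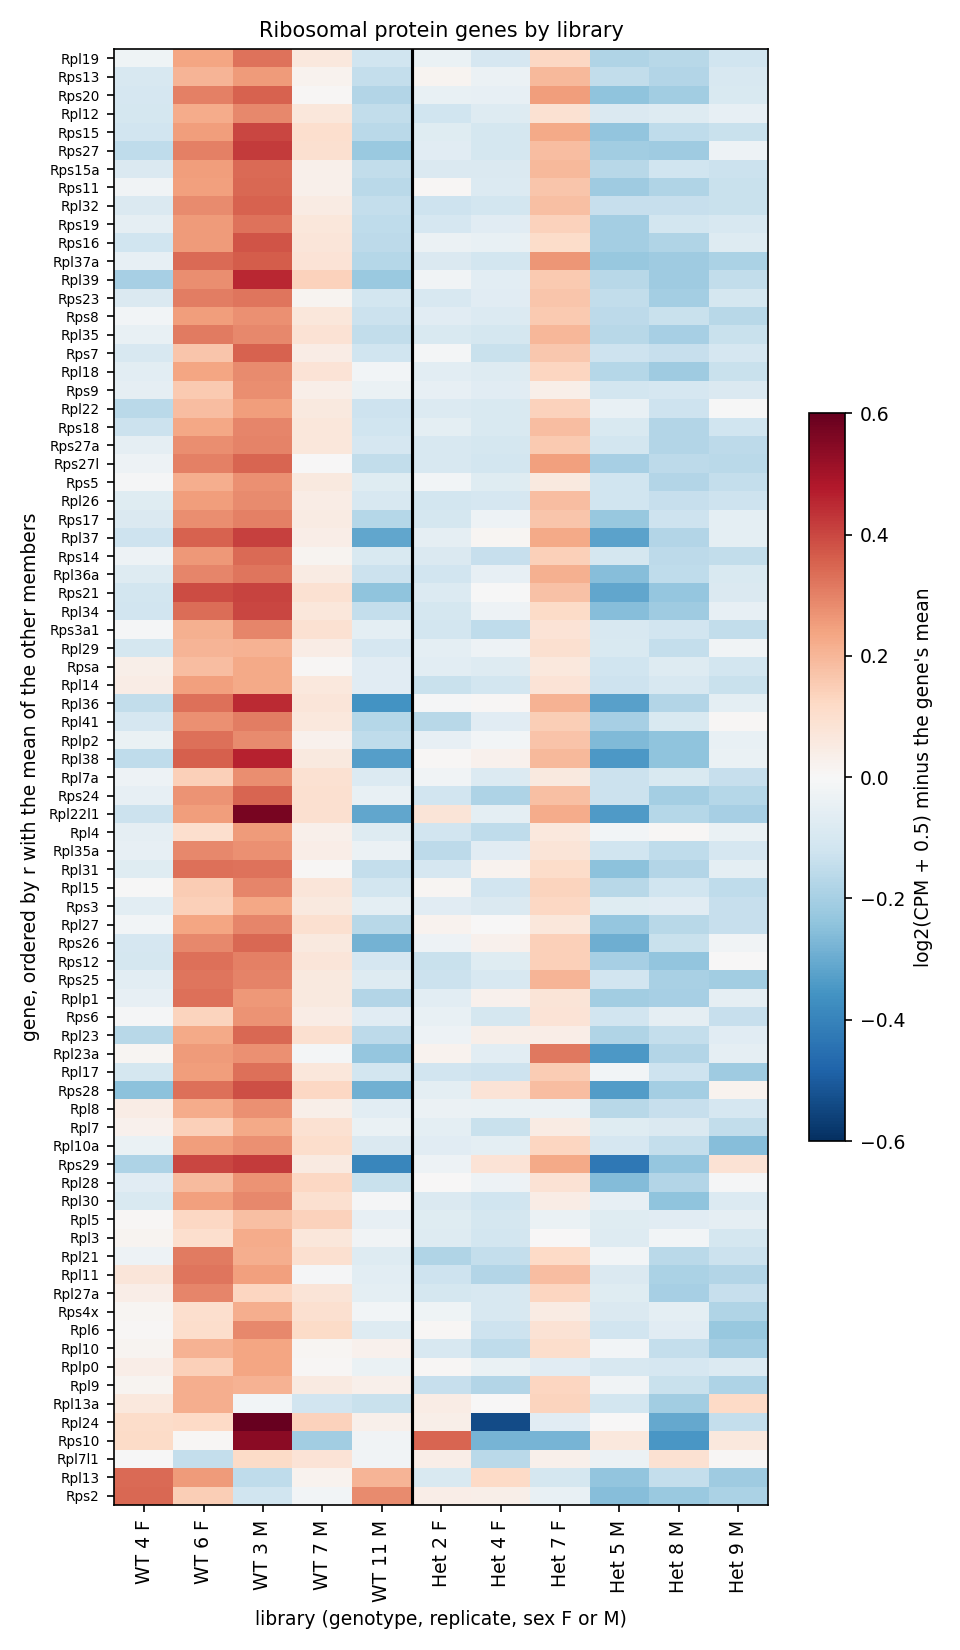
Levels of 79 of the 80 tested ribosomal protein genes (rows) in the 11 libraries (columns), as log2(CPM + 0.5) minus the gene's mean. Red is above and blue below the mean. Rows are ordered by the correlation with the mean of the other genes after the means of genotype and sex groups were taken out, while the levels shown keep those means. The upper rows share 1 pattern, with WT replicates 6 and 3 and Het replicate 7 high, and the bottom rows, Rpl13 and Rps2, do not.

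The swing was wider for shorter mRNAs. Across the 80 genes, the correlation of log2 mRNA length with the SD of log2 level over libraries was r = -0.57, and it was -0.58 over the 78 genes with a mean of at least 20 CPM. Rps29 (390 nt), Rpl38 (345 nt) and Rps28 (271 nt) had SDs of 0.29, 0.26 and 0.25 on the log2 scale. Rpl3 (1351 nt), Rpl5 (2045 nt) and Rplp0 (1358 nt) had SDs of 0.10, 0.10 and 0.11. Over all genes tested, each library's level also followed mRNA length and GC content. The size of that trend at the ribosomal protein genes, 1 value per library, had a correlation of r = 0.94 with their mean level over the 11 libraries.

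Some genes stood outside the block. Rps2 and Rpl13 ran against it within genotype and sex groups (r = -0.89 and -0.82). The others that followed least were Rpl7l1 (0.22), whose product helps assemble ribosomes, Rps10 (0.24) and Rpl24 (0.59). Rps10 and Rpl24 had means of 1.62 and 2.10 CPM, so counting error weighs more on them than on the others. Rpl7l1, at 150 CPM, was also the steadiest of the 80, with an SD of 0.09 on the log2 scale and a 1.21-fold range over libraries.

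The summed level of the 81 genes put the block in 1 number per library. Their share of all CPM was 4.63%, 5.40%, 5.52%, 4.89% and 4.51% in WT replicates 4, 6, 3, 7 and 11. In Het it was 4.65%, 4.68% and 5.18% in the females (replicates 2, 4 and 7) and 4.50%, 4.46% and 4.50% in the males (replicates 5, 8 and 9). The means were 4.99% ± 0.45 in WT (SD, n = 5) and 4.66% ± 0.27 in Het (SD, n = 6). The share was not tested, and sex was not taken into account in it. The difference of means was -0.33 percentage points, smaller than the SD between WT libraries and larger than that between Het libraries, and the groups overlapped. Without WT replicate 11 and Het replicate 9 it was -0.42 points, and without WT replicate 3 it was -0.20 points. The mitochondrially encoded share, 4.66% ± 0.34 in WT (SD, n = 5) and 4.59% ± 0.24 in Het (SD, n = 6), differed by less than its spread.

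**Figure D2:**
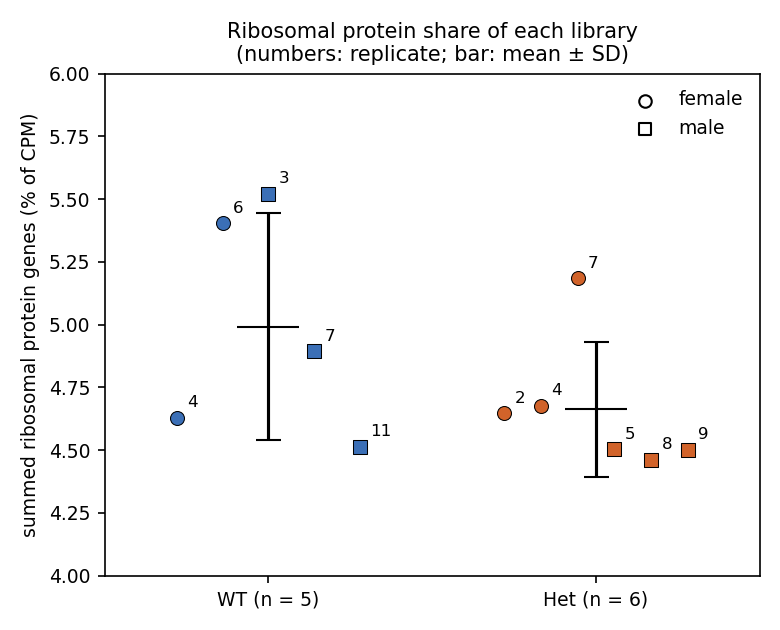
Summed level of the 81 ribosomal protein genes as a percentage of all CPM (vertical axis, which starts at 4%) in each WT and Het library; circles are females, squares males, numbers the replicate, and the bar is the mean ± SD. The 3 Het males lie between 4.46% and 4.50%, and WT replicate 11 lies beside them at 4.51%.

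Between genotypes, all 80 tested genes had a lower fitted level in Het, but 2 passed the test. Rpl13, of the large subunit, fell by 0.27 on the log2 scale, and Rps2, a small subunit protein beside the mRNA entry channel, fell by 0.25. No gene rose. The median difference was -0.17 on the log2(CPM + 0.5) scale, or 11.0% lower in Het, against -0.016 over all 13184 genes tested. Differences ran from -0.36 (Rpl24) to -0.001 (Rpl7l1).

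The 2 genes called lower of 80 stand beside a background of 1.14% of all genes tested called lower and 2.3% called higher (limma with genotype and sex, Benjamini-Hochberg adjusted p below 0.05). At an unadjusted p below 0.05, 40 of the 80 were lower and 0 higher, against 11.7% and 10.6% of all genes tested. This count of 40 depended on the setting. It was 17, 21 and 26 without WT replicate 6, 3 or 7, 22 without Het replicate 8 and 25 without Het replicate 4 or 5, and it was 68 and 72 without WT replicate 11 or 4. It was 9 when libraries were scaled to the total of the other genes and with voom weights, and 3 after quantile normalization. These counts take either direction, as do the shares of all genes tested that follow. The share was 22.3% in the fit as reported. It was 17.9%, 24% and 20.1% without WT replicate 6, 3 or 7, and 22.7% and 20% without WT replicate 11 or 4. Without Het replicate 8, 4 or 5 it was 19%, 20% and 20.3%. Scaled to the other genes it was 21.7%, with voom weights 21.6% and after quantile normalization 19.6%. A negative difference of any size was found for 53.0% of all genes. No ribosomal protein gene had every Het library below every WT library, a pattern that 1.33% of all genes tested showed, and none had every Het library above every WT library (2.02%). The 80 genes moved together across libraries, so their shared sign is not 80 independent observations. Without the 2 libraries in doubt over Myt1l, the median was -0.21, all 80 stayed negative and 0 were called. Without WT replicate 3 the median was -0.10. When libraries were scaled to the total of the other genes, the median was -0.11 with 78 of the 80 negative, and the median of all genes was 0.04. After quantile normalization the median was -0.07 with 76 negative.

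**Figure D3:**
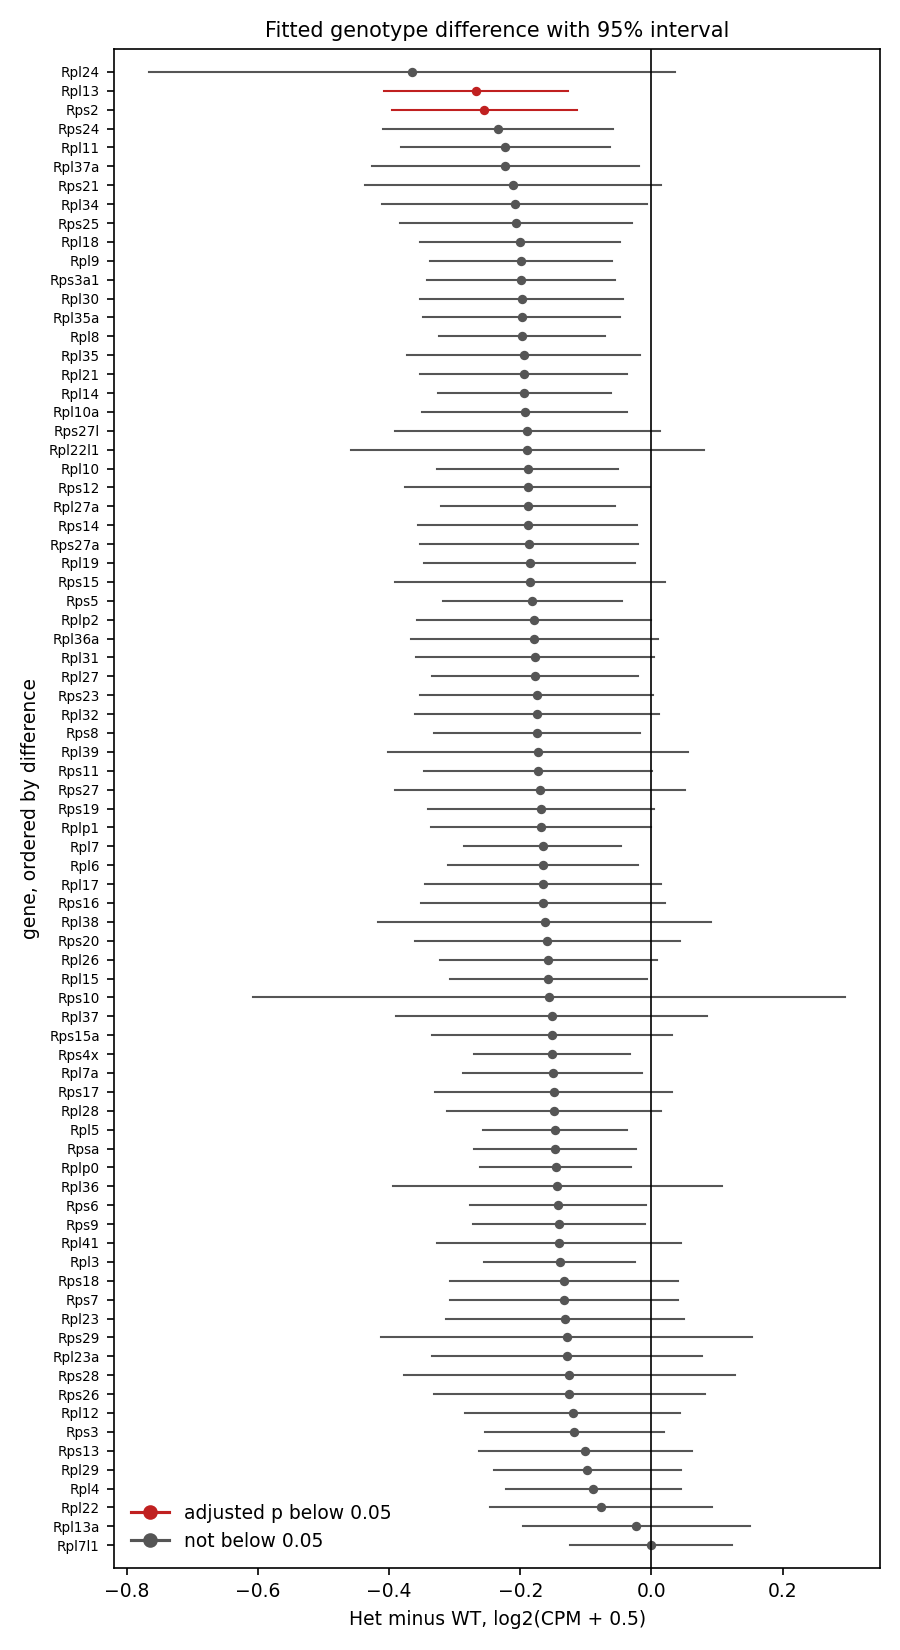
Fitted Het minus WT difference on the log2(CPM + 0.5) scale (horizontal axis) for 79 of the 80 tested genes (vertical axis), with the 95% interval of the limma fit; red marks an adjusted p below 0.05. All 79 points lie below 0, most between -0.1 and -0.2, and Rpl13 and Rps2 are the only ones in red.

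Rpl13 (ENSMUSG00000000740) lies on chromosome 8 from 123102350 to 123105244 on the plus strand of the mm10 build, and it was the most abundant of these mRNAs per kilobase. Its levels were 2270, 2147, 1615, 1825 and 2070 CPM in WT replicates 4, 6, 3, 7 and 11. In Het, replicates 2, 4 and 7 had 1685, 1953 and 1671 CPM, and replicates 5, 8 and 9 had 1524, 1625 and 1549 CPM. WT replicates 4, 6 and 11 stood above every Het library, while WT replicate 3 lay below several of them. The fitted difference was -0.27 (SE 0.066, 95% interval -0.41 to -0.13, limma adjusted p = 0.0368). Exact permutation of the genotype labels inside each sex (two-sided) gave p = 0.02, where the smallest possible was 0.005.

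Rps2 (ENSMUSG00000044533) lies on chromosome 17 from 24718116 to 24721929, also on the plus strand. Its levels were 395.9, 346.0, 287.0, 308.6 and 379.4 CPM in WT replicates 4, 6, 3, 7 and 11. The Het females had 320.8, 320.2 and 303.0 CPM and the Het males 261.4, 267.5 and 273.3 CPM. Again WT replicates 4, 6 and 11 were above every Het library, and all 3 Het males were below every WT library. The difference was -0.25 (SE 0.066, 95% interval -0.40 to -0.11, limma adjusted p = 0.0452), and the same exact permutation gave p = 0.005, the smallest it could give. Rpl13 and Rps2 were permuted because the fit on the same libraries had called them. Their permutation p-values are not adjusted for that choice, rest on values already corrected, and give no separate support. The 27 near-identical pseudogenes of Rps2 make its count less certain than most.

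Rpl13 and Rps2 moved with each other and not with the rest. Over the 11 libraries their correlation was r = 0.93, while with the mean of the other 78 genes it was 0.11 for Rpl13 and 0.09 for Rps2. WT replicate 4 was the highest library for both, yet it lay near the middle for the other 78. WT replicate 3 was the highest for most of the 78 and the lowest WT library for both. Both calls were borderline: the call of Rpl13 held without WT replicate 3 or without Het replicate 4 and was lost on leaving out any other single library, and that of Rps2 held only without WT replicate 3. Both were lost without the 2 libraries in doubt, when sex was not in the model, and under quantile normalization. The differences of both genes stayed negative in each of these fits. In 2 of the fits with 1 library left out, another gene was called in their place, Rpl9 without Het replicate 7 and Rpl8 without WT replicate 11.

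**Figure D4:**
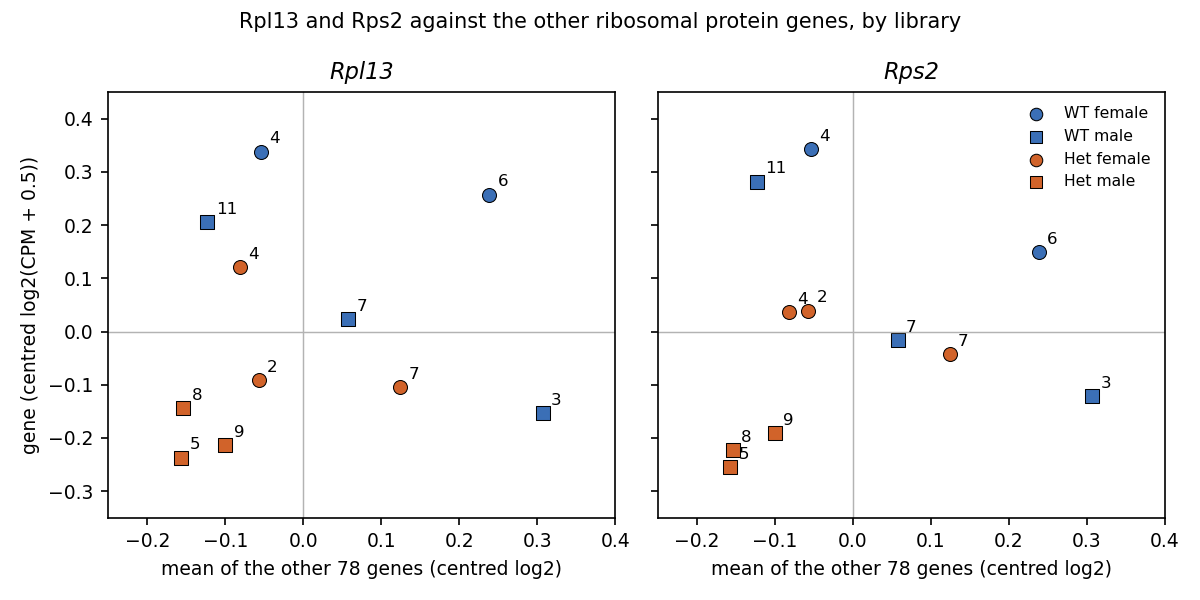
Level of Rpl13 (left) and Rps2 (right) in each library against the mean of the other 78 ribosomal protein genes, both as centred log2(CPM + 0.5); blue is WT, orange Het, circles females, squares males, and numbers give the replicate. WT replicate 3 is far to the right and low, and WT replicates 4 and 11 are high without being to the right.

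By role, the classes had nearly the same difference between genotypes. The 31 small subunit genes had a median of -0.17 and the 43 large subunit genes one of -0.17 on the log2 scale, each with 1 gene called. In the stalk, the flexible arm that recruits elongation factors, Rplp0 ran from 588.3 to 712.1 CPM in WT with a median of 620.8, and from 563.3 to 607.1 in Het with a median of 573.8. The groups overlapped, and its difference was -0.15 (SE 0.054, limma adjusted p = 0.129). Rplp1 and Rplp2 differed by -0.17 and -0.18, with adjusted p = 0.224 and 0.221 (limma).

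RPL5 and RPL11 form, with 5S ribosomal RNA, the particle that can bind MDM2 and stabilise p53. Rpl11 had 643.7, 764.3, 726.1, 608.7 and 585.6 CPM in WT replicates 4, 6, 3, 7 and 11, and 535.3 to 696.3 CPM in Het with a median of 550.5. Het replicate 7 stood apart from the other Het libraries and inside the WT range. The difference was -0.22 (SE 0.075, limma adjusted p = 0.1004), and that of Rpl5 was -0.15. Trp53, the gene for p53, stood at 48.7 ± 2.6 CPM in WT (SD, n = 5) and 46.6 ± 3.4 in Het (SD, n = 6), with a limma adjusted p of 0.593. These are mRNA levels, and the particle acts on p53 protein, which was not measured.

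Genes of both subunits are mutated in Diamond-Blackfan anaemia, a failure of red cell production. All 18 on the list for that disease were tested, none was called, and their median difference was -0.16 on the log2 scale. Rps24, one of them, had 466.7, 581.9, 616.2, 515.6 and 469.0 CPM in WT replicates 4, 6, 3, 7 and 11, against 418.9 to 547.5 CPM in Het with a median of 435.8. Only Het replicate 7 was inside the WT range, and the difference was -0.23 (SE 0.083, limma adjusted p = 0.114). Rps19, the gene most often mutated in that disease, differed by -0.17 (SE 0.081, limma adjusted p = 0.234).

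On the X chromosome, Rps4x, Rpl10, Rpl36a and Rpl39 had a median difference of -0.18, with none called. Rps4x ran from 496.7 to 584.5 CPM in WT with a median of 537.5, and from 443.0 to 519.7 in Het with a median of 478.2. Het replicate 7 lay above WT replicates 4 and 11. Of the paralogs, Rpl22l1 and Rps27l differed by -0.19 each and Rpl7l1 by -0.001 (SE 0.058), all short of the threshold. Rpl3l, at 0.504 ± 0.224 CPM in WT (SD, n = 5) and 0.623 ± 0.294 in Het (SD, n = 6), was not tested.

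The genes with the smallest differences after Rpl7l1 were Rpl13a (-0.02), Rpl22 (-0.08), Rpl4 (-0.09), Rpl29 (-0.10) and Rps13 (-0.10). Those with the largest below Rpl13 and Rps2 were Rps24 (-0.23), Rpl11 (-0.22) and Rpl37a (-0.22). Rpl24 had the lowest value of all but also a wide error: it stood at 2.10 to 3.42 CPM in WT with a median of 2.27 and at 1.26 to 2.11 CPM in Het with a median of 1.87, and the limma adjusted p was 0.268. The 46 tested genes with a pyrimidine run of at least 9 at an annotated start had a median difference of -0.18. The 14 with shorter runs, which include Rpl22 with its doubtful start, had one of -0.14. The 14 genes with shorter runs were also longer, with a median mRNA length of 1018 nt against 680.5 nt.

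Up to an mRNA length of 1500 nt, the median difference of ribosomal protein genes lay close to that of other genes in the same bin of length, and above it the medians were further apart. The bins use the length of the annotated transcript, and whether that transcript is the one expressed here was not tested. For mRNAs up to 500 nt, the median Het minus WT difference was -0.17 for 19 ribosomal protein genes and -0.17 for 95 other genes. Between 500 and 700 nt it was -0.17 (21 genes) and -0.16 (256 other genes). Between 700 and 1000 nt it was -0.18 (22 genes) and -0.16 (580 other genes). Between 1000 and 1500 nt it was -0.15 (12 genes) and -0.13 (1353 other genes). For mRNAs of 1500 to 2500 nt, the ribosomal protein median of 5 genes was -0.15 and that of 3188 other genes -0.07. Between 2500 and 4000 nt stood only Rps20, at -0.16, against 0.01 for 3804 other genes. Other genes over 4000 nt had a median of 0.12, on the other side of 0.

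With each library's trend on mRNA length and GC content taken out, the median of the ribosomal protein genes was -0.02 and 57 of the 80 were negative. None was called then. The differences of Rpl13 and Rps2 were then -0.11 and -0.12, against -0.27 and -0.25 before, and short of the threshold. The trend on length alone, taken out in an alternative added after the data were seen, left a median of -0.02 and 54 negative. The striatal markers moved opposite to these genes: over the 11 libraries their mean level had a correlation of r = -0.70 with the mean of the ribosomal protein genes. With that striatal mean as a covariate, the median difference was -0.01 and 47 of 80 were negative, while Rpl13 and Rps2 had differences of -0.43 and -0.42, also not called. The parts of genotype, transcript length and tissue content in the shared difference cannot be told apart.

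**Figure D5:**
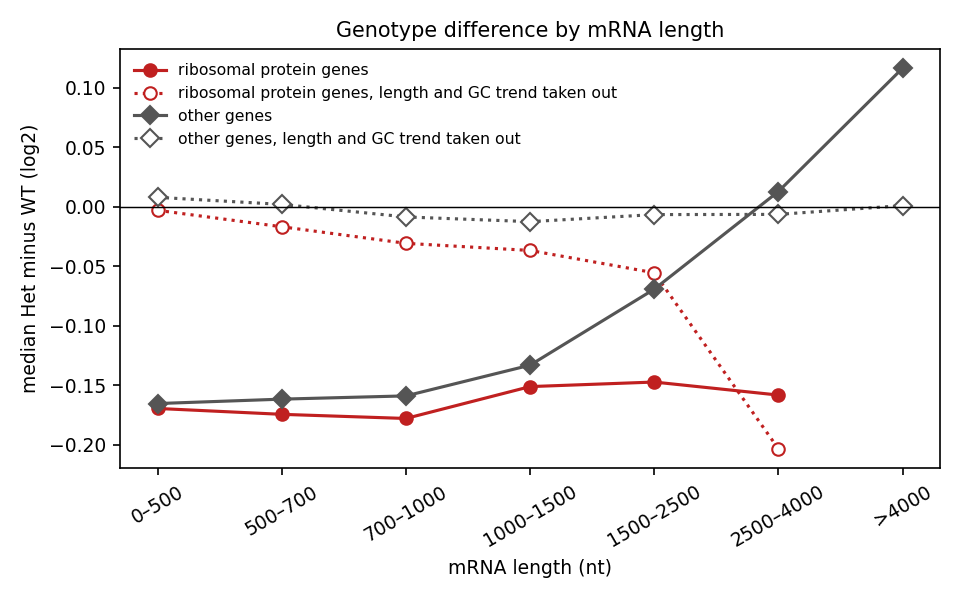
Median Het minus WT difference (log2, vertical axis) by bin of mRNA length (horizontal axis, nt) for ribosomal protein genes (red circles) and other genes (grey diamonds); filled symbols with solid lines are the fit as reported, open symbols with dotted lines the fit after removal of the length and GC trend. Up to 1000 nt both sets lie between -0.16 and -0.18, and the last red point is the single gene Rps20.

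Sex was compared in the same fit. No ribosomal protein gene was called between males and females (limma, adjusted p below 0.05), against 0.197% of all genes tested called in either direction and 0.0758% called lower in males. At an unadjusted p below 0.05, 3 genes were lower in males and 0 higher, where the background was 6.45% and 5.75%. They were Rpl13 and Rps2 (-0.22 each, SE 0.066, limma adjusted p = 0.213 for both) and Rpl23a (-0.21). Of the 80 differences, 74 were negative (51.8% of all genes tested), with a median of -0.08. Rpl23a is named here because of its value. Without WT replicate 11, Rps2 was called lower in males.

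Whether the genotype difference itself differed between the sexes was tested by the interaction term. None of the 80 was called, and 0 reached an unadjusted p below 0.05 (limma), with 0.0% of all genes called and 2.87% lower and 1.78% higher at the unadjusted threshold. The median Het minus WT difference was -0.11 in females, with 76 genes negative (50.3% of all genes tested), and -0.22 in males, with 79 negative (54.4%). At an unadjusted p below 0.05, 2 genes were lower in females and 0 higher (background 5.66% and 7.56%), and 33 were lower in males and 0 higher (background 8.01% and 6.61%). No ribosomal protein gene was called within either sex (limma, adjusted p below 0.05). Of all genes tested, 0.0% were called in females and 0.0683% in males, 0.0531% higher and 0.0152% lower. The widest interaction was that of Rpl22l1 (-0.37, SE 0.25), whose WT male replicate 3 had 186.9 CPM against 101.3 in WT male replicate 11. The 2 WT females were far apart (4.63% and 5.40% of CPM), as were the WT males, while the 3 Het males were close together.

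Genes for 2 ribosomal proteins left out by the symbol rule had differences of a similar size. Fau, which encodes RPS30 fused to a ubiquitin-like protein, stood at 678 ± 85 CPM in WT (SD, n = 5) and 603 ± 52 in Het (SD, n = 6), a difference of -0.17 with a limma adjusted p of 0.191. Rack1, a scaffold on the small subunit, went from 364 ± 23 in WT (SD, n = 5) to 326 ± 12 CPM in Het (SD, n = 6), a difference of -0.16 (SE 0.053) that did not pass.

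Of all genes tested, 1.14% were called lower and 2.3% higher, and the counts of calls in the lists below stand beside that. Among 45 tested genes listed as translation factors, a list that also holds Tpt1, Naca and Btf3, 1 fell and none rose. Their median was -0.08. The one that fell was Tpt1, whose mRNA is itself a TOP mRNA. It stood at 765 ± 34 CPM in WT (SD, n = 5) and 677 ± 30 in Het (SD, n = 6), a difference of -0.19 (limma adjusted p = 0.0385). No initiation, elongation or release factor on the list was called. Naca, part of the complex that shields chains leaving the ribosome, differed by -0.22 without passing (limma adjusted p = 0.0676). Of 60 ribosome biogenesis factors, 1 rose and none fell, with a median of -0.03. It was the nucleolar GTPase gene Gnl3l, which rose by 0.29 (limma adjusted p = 0.0368).

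Of 17 genes for the transcription of ribosomal RNA, 1 fell, with a median of 0.03. This was Polr1d, a subunit shared by RNA polymerases I and III, at 138 ± 4.6 CPM in WT (SD, n = 5) and 120 ± 8.2 in Het (SD, n = 6), a difference of -0.21 (limma adjusted p = 0.0442). In the mTOR pathway and its control of TOP mRNAs, 1 of 32 rose, with a median of -0.02. It was Tia1, an RNA-binding protein of stress granules that binds TOP mRNAs, which rose by 0.36 (limma adjusted p = 0.0236). None of the 15 genes for ribosome quality control and stalling passed, with a median of -0.009. With 1.14% of all genes tested called lower and 2.3% higher, the single calls are not read as results about these lists.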

How the data were processed

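The authors deposited 1 table of log2 CPM for 14864 genes in 11 libraries, after a correction that the table's name gives as RUVr (removal of unwanted variation estimated from residuals). The sources used here do not give the number of factors or the design of the correction. The submitters' processing notes name Trimmomatic, Bowtie2, STAR and HTSeq with build mm10 and no versions. Per the labels' protocols, the kit for the libraries was the SMARTer Ultra Low RNA kit. Each column had the same lowest value (-3.574) and the same upper quartile (5.473). Back-transformed values minus the lowest value came out as whole counts, to within 0.02, for 100% of values. These counts are after the correction. A correction built on residuals lowers the spread left for the test, so p-values may be too small.

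CPM were recovered by this back-transform, and limma 3.58.1 (R 4.3.3) was run on log2(CPM + 0.5), by lmFit and eBayes with trend, for the 13184 genes with a mean of at least 1 CPM, with genotype and sex as terms and, for the interaction, their product. P-values are two-sided and Benjamini-Hochberg adjusted over all genes tested, with a threshold of 0.05. The fit was also tested on simulated data in which genes varied independently and no correction was applied. That test does not cover genes that move together. Transcript lengths, GC content and overlaps came from GENCODE, which holds 14856 of the table's genes. Pseudogene copies were found with blastn 2.17.0. No count model was used, since the deposited unit is log2, but voom weights on the recovered counts were an alternative.

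Groups and sex came from the sample titles. Named were Myt1l, members called, the 6 highest and 6 lowest differences, the 5 highest and 5 lowest levels per kilobase, the 5 genes that followed the others most and least, and every stalk, paralog and X-linked member. From each other list at most 4 genes were taken by smallest p. Of the genes these rules take, 2 are not reported here, though they stay in the counts and medians. The members and lists were chosen with earlier results of these data known. Alternatives covered pseudocounts, filters, scalings, terms of the model, left-out libraries and the length and GC trend. Sequences are from RefSeq (GRCm38.p6).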

Additional observations from a re-analysis of the deposited data

Results flagged for a closer look

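In groups of 5 or 6 libraries, 62 groups of values were tested for a library far from the others, and chance flags about 1 in 20 of them. Het replicate 7, a female, was far above the other Het libraries for Rpl11 (696 CPM), Rpl12 (204 CPM), Rpl37a (783 CPM) and Rps14 (1457 CPM). The same library was far above for Rps19 (1492 CPM), Rps20 (444 CPM), Rps24 (547 CPM) and Rps27l (83.2 CPM), and for the summed share of the ribosomal protein genes (5.18% of CPM). These values are not independent of each other, since the genes moved together. In WT, replicate 3 was far above the other libraries for Rpl24 (3.42 CPM).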

How the results depend on the processing

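The 2 genes called lower became 0 after quantile normalization, scaling to the total of other genes, voom weights, leaving out the sex term, 1 residual degree of freedom fewer, taking out the length and GC trend or (added after the data were seen) the length trend, adding the striatal mean to the model, without the 2 libraries in doubt, within the identifier prefixes 14308 and 14309, and within females or males (also added). Leaving out single libraries gave 0 to 2. The genes called were not always Rpl13 and Rps2: they were Rpl10a and Rpl18 with the prefix as a term, Rpl9 without Het replicate 7 and Rpl8 without WT replicate 11. The median of -0.17 became -0.33 within prefix 14308, -0.11 scaled to the total of other genes, -0.10 with voom weights, -0.07 after quantile normalization, -0.021 without the length and GC trend, -0.017 without the length trend and -0.011 with the striatal covariate. It ran from -0.24 (without WT replicate 4) to -0.10 (without WT replicate 3) when single libraries were left out. Only WT replicate 4 has the prefix 14111.

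Replicate numbers 4 and 7 occur in both groups, but the labels do not say that they pair samples. With these numbers as a replicate block, on 4 libraries and without a sex term, the median reversed to 0.024, 31 of 80 genes were negative and 0 were called. No value for sex or the interaction could be fitted there, without the sex term or within prefix 14308. Without WT replicate 11, 1 gene, Rps2, was called between sexes (-0.27, males lower), and the range over left-out libraries was 0 to 1. The share difference ran from -0.45 to -0.20 points. Over all genes, 303 were called higher and 150 lower; with library medians centred this was 233 and 243, scaled to the total of other genes 681 and 67, and with voom weights 687 and 57. Under the other pseudocounts and filters on low values, and with library medians centred, Rpl13 and Rps2 were the 2 genes called. No depth limit can be set from corrected counts.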
